A study of Mus musculus with 4 samples.

Results

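The comparison described here is forced Twist2 against green fluorescent protein (GFP) in proliferating mouse myoblasts, measured by RNA sequencing. It rests on 2 of the 4 libraries of the study and covers all 3760 genes of the authors' deposited table. The cells were cultured myoblasts from C57BL/6 skeletal muscle that the labels call Twist2-positive. They were exposed for 24 h to a retrovirus carrying either GFP or Twist2 followed by an IRES and GFP, and then kept for 24 h in growth medium containing 20% fetal bovine serum. The remaining 2 libraries came from cells given the same viruses and then held for 5 days in differentiation medium with 2% horse serum. They are used only as a second, separate Twist2 against GFP comparison that shares no library with the first. Each group was 1 library, so no difference was checked against replicates and no test was run. What belongs to a library and what belongs to Twist2 cannot be told apart. Reads of the viral and the endogenous Twist2 are not separated in the table, and whether infected cells were sorted is not given in the sources used here.

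Twist2 (also called Dermo1) is a basic helix-loop-helix transcription factor of mesenchymal progenitors. Such factors pair with the widely expressed E proteins and bind E-boxes, the DNA motif CANNTG, which is also the motif of the myogenic factors MyoD and myogenin. In cultured cells Twist proteins are known to hold back MyoD-driven muscle differentiation, and in the embryo they accompany mesenchymal and connective tissue fates.

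Values are CPM, which scale each gene's reads to the size of the library, and a log2 ratio is the log2 of (CPM + 1) in the Twist2 library over (CPM + 1) in the GFP library, so negative values mean lower with Twist2. The growth medium libraries held 9744075 reads (GFP) and 11068073 reads (Twist2), which makes 1 read worth 0.103 and 0.0903 CPM. The 95% intervals are exact conditional binomial intervals of the ratio of reads without the added 1 CPM, and they cover counting error only. Twist2 itself had 1 read in the GFP library and 15915 reads (1438 CPM) in the Twist2 library. The GFP library thus held almost no Twist2 reads, although the labels call the myoblasts Twist2-positive. Of 14 myoblast markers, 11 were in the table, and their summed level was 6391 CPM with GFP and 3087 CPM with Twist2, so myoblast markers were present in both. None of the markers listed for endothelial cells, leukocytes, Schwann cells or adipocytes was in the table. By its values, the table keeps genes with 10 CPM in 2 or more libraries and a 2-fold difference in an authors' comparison. A marker outside it is therefore not shown to be unexpressed. Of 10 fibroblast markers, 2 were in the table (Ly6a and Dcn), with a summed level of 12.9 CPM with GFP and 43.5 CPM with Twist2. In these bulk samples, fewer cells of a type and less of its RNA per cell cannot be told apart. The 45S ribosomal precursor Rn45s took 0.209% of reads with GFP and 0.829% with Twist2. Leaving its reads out of the totals moved every log2 ratio by 0.009.

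In all, 3514 genes reached 10 CPM in 1 or both growth medium libraries. Of these, 372 stood 2-fold or more lower with Twist2 (10.6%) and 183 stood 2-fold or more higher (5.21%), together 15.8%. The larger differences leaned further to the lower side: 97 genes were at least 4-fold lower and 36 at least 4-fold higher, and 31 against 9 passed 8-fold. The middle of the distribution was narrow, with 5th and 95th percentiles of -1.52 and 0.98 and a median of -0.10 over all listed genes. The counting interval excluded equality for all 555 genes. This follows from choosing them by the same reads at 2-fold and 10 CPM, so it adds no support. Of all 3760 listed genes, 2708 had such an interval. For 285 of the lower and 128 of the higher genes the whole interval lay beyond 2-fold. The balance between lower and higher depended on scaling. With median-of-ratios size factors the median moved up by 0.23, and 272 genes were higher and 241 lower, so that higher genes made up 53.0% of those past 2-fold in place of 33.0%. The 183 higher genes and 241 of the lower genes were past 2-fold under either scaling.

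**Figure D1:**
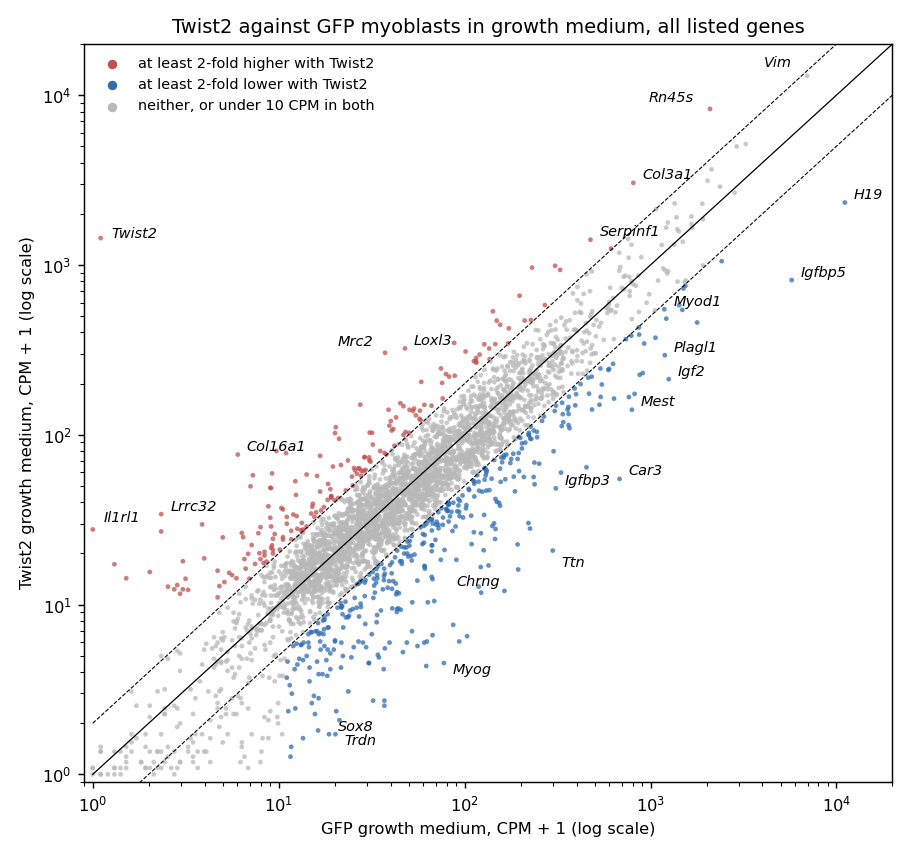
CPM + 1 of 3760 listed genes in the GFP (horizontal) and Twist2 (vertical) growth medium libraries, both on log axes, 1 point per gene; the solid line marks equality and the dashed lines 2-fold. Points below the lower line (372 genes, blue) outnumber those above the upper line (183 genes, red), and Twist2 stands alone at the left edge.

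The genes with the lowest ratios were mostly muscle genes. Myog, which encodes myogenin, the factor that commits myoblasts to differentiation, had 76.4 CPM with GFP and 3.52 CPM with Twist2, the lowest ratio of all genes past the 10 CPM minimum (-4.10, interval -4.94 to -3.97). Ttn, which encodes the giant elastic protein titin, stood at 297 and 19.8 CPM (-3.84, interval -4.11 to -3.71). Lmod3, an actin filament nucleator of the thin filament, stood at 36.0 and 1.54 CPM, and Myom3, an M-band protein, at 36.0 and 1.72 CPM. These 4 genes were 15- to 23.5-fold lower in CPM.

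Parts of the calcium store, the Z-disc and the synapse followed among the 15 lowest genes. Trdn, which anchors calcium release units to the sarcoplasmic reticulum, stood at 19.2 CPM with GFP and 0.723 CPM with Twist2. Klhl41, a kelch protein that stabilises nebulin, went with it at 31.2 and 1.72 CPM, and Pdlim3, a Z-disc protein, at 92.6 and 5.06 CPM. Chrng and Chrnd, the gamma and delta subunits of the fetal acetylcholine receptor, stood at 193 against 15.1 CPM and 122 against 10.8 CPM. Car3, a carbonic anhydrase abundant in slow muscle, was 12.6-fold lower, at 681 and 53.9 CPM. Ano5, a muscle member of the anoctamin family, stood at 163 and 11.0 CPM. The set is completed by Ccdc141 (102 and 5.51 CPM), Ppfia4, a liprin scaffold protein (61.2 and 3.34 CPM), Arpp21, a cyclic AMP-regulated phosphoprotein (85.8 and 6.6 CPM), and Sox8, an HMG-box factor of satellite cells (17.7 and 0.723 CPM).

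Several of these genes are neighbours in the GRCm38 annotation. Myog (chr1:134289989-134292548, plus strand) lies beside Ppfia4 (chr1:134296783-134332928, minus strand). Chrnd (chr1:87190607-87200070) and Chrng (chr1:87204657-87212694) follow each other on the plus strand. Ttn (chr2:76703980-76982547) and Ccdc141 (chr2:77009902-77170636) are both on the minus strand of chromosome 2. The genes of each pair do not overlap in this annotation. The annotation and counter behind the deposited values are not given, so whether reads were shared between neighbours was not tested.

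At the other end, the genes with the highest ratios were secreted or surface proteins in most cases. Il1rl1, the receptor of interleukin 33 (also called ST2), had 0 reads with GFP and 26.7 CPM with Twist2, at least 86.6-fold higher when the GFP library is set to the floor of 3 reads. Lrrc32, which holds latent TGF-beta at the cell surface, stood at 1.33 and 33.1 CPM (3.87, interval 3.84 to 5.55). Col16a1, a fibril-associated collagen, stood at 5.03 and 75.4 CPM, a 15-fold difference. Crabp1, which binds retinoic acid inside cells, stood at 1.33 and 25.9 CPM. In each of them the GFP library was the low one, at 5.03 CPM or less.

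Mrc2 encodes an uptake receptor for collagen fragments, and it was 8.34-fold higher, at 36.3 CPM with GFP and 303 CPM with Twist2 (3.02, interval 2.90 to 3.22). Loxl3, a collagen crosslinking enzyme, stood at 46.8 and 321 CPM. Both genes were well measured in each library, unlike most of the 15 highest. Secreted antagonists and modulators followed: Grem1, which blocks BMP ligands, at 6.05 and 48.7 CPM, Vasn, which binds TGF-beta, at 9.95 and 77.0 CPM, and Wisp2, a CCN family protein, at 6.26 and 56.7 CPM. Fam20a, a secretory pathway pseudokinase, stood at 8.72 and 79.2 CPM, and Olfml3, a secreted olfactomedin protein, at 2.87 and 28.6 CPM. Runx1t1, a transcriptional corepressor, was close to 0 with GFP (0.513 CPM) and at 13.3 CPM with Twist2, and Ankrd35 (0.308 and 16.3 CPM) and Fam212a (1.03 and 14.5 CPM) had the same shape. For such genes the added 1 CPM holds the ratio down: that of Runx1t1 was 3.24, below its own counting interval of 3.44 to 6.34.

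**Figure D2:**
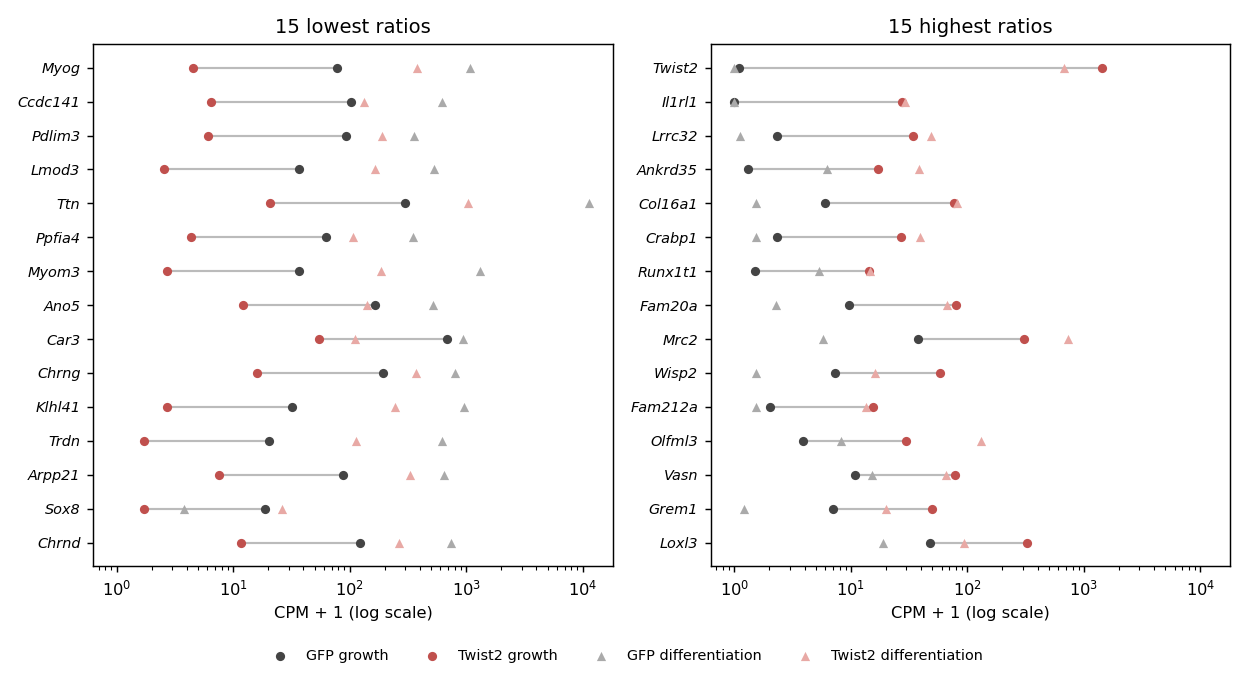
CPM + 1 (log axis) of the 15 genes with the lowest (left) and the 15 with the highest (right) growth medium ratios, in all 4 libraries. Circles joined by a line are the growth medium pair and triangles the differentiation medium pair, with grey for GFP and red for Twist2; the growth medium Twist2 library was the lowest of the 4 for every gene on the left.

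To show what the regions upstream of these genes look like, the 250 bases before the RefSeq start (GRCm38.p6) follow for 4 of the lowest and 4 of the highest genes, the most extreme in each direction with a single RefSeq promoter entry, Twist2 left out. Each is written 5′ to 3′ on the strand of the gene, and capitals mark every CANNTG. The lower genes come first: Myog (chr1:134289754-134290003, plus), Ccdc141 (chr2:77170636-77170885, minus), Pdlim3 (chr8:45885237-45885486, plus) and Ttn (chr2:76982548-76982797, minus). The higher genes are Ankrd35 (chr3:96669881-96670130, plus), Col16a1 (chr4:130047590-130047839, plus), Crabp1 (chr9:54764498-54764747, plus) and Fam20a (chr11:109722239-109722488, minus).
Myog: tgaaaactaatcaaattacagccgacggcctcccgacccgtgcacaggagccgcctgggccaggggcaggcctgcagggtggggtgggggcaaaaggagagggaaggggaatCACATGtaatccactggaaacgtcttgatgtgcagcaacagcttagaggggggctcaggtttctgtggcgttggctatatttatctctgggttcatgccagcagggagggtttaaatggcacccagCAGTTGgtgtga
Ccdc141: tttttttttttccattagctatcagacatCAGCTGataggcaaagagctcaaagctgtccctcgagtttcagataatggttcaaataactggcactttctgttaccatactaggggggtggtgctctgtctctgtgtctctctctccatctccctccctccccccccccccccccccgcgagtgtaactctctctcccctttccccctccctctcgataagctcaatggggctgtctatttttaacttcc
Pdlim3: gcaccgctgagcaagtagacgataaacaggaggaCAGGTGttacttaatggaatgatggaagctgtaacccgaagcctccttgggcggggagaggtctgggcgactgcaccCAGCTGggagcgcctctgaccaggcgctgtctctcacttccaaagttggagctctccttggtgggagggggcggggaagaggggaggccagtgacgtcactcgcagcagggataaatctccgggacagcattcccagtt
Ttn: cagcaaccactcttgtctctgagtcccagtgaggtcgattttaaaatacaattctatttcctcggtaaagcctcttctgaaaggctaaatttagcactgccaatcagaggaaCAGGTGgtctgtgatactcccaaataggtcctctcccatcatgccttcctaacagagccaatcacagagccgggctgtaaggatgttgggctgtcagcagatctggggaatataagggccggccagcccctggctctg
Ankrd35: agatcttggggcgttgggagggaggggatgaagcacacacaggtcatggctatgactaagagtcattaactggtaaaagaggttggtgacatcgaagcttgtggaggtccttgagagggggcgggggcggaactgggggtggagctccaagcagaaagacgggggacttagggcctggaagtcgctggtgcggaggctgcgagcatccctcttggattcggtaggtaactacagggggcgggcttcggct
Col16a1: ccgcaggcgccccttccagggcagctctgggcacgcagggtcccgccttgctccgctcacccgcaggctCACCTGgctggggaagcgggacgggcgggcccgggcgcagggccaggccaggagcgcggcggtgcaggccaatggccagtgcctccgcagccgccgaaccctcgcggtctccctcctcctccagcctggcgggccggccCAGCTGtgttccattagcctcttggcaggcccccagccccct
Crabp1: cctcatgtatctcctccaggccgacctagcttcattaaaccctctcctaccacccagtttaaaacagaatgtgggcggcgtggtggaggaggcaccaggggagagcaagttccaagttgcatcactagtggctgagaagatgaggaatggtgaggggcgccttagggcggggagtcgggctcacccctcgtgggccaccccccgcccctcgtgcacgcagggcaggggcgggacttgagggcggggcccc
Fam20a: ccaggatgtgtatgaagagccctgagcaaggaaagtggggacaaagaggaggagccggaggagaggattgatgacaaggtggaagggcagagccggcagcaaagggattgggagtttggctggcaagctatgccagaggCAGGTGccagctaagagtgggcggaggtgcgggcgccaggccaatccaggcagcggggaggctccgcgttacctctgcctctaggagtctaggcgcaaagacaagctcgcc

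The Myog window holds 2 E-boxes, which begin 138 and 12 bases before the start. Pdlim3 holds 2, at 216 and 139 bases, the second of them CAGCTG, and Ccdc141 holds 1 CAGCTG at 221 bases. The Ttn window holds 1, at 138 bases. Among the higher genes, Col16a1 holds 2 (at 181 and 42 bases) and Fam20a 1 (at 111 bases), and Ankrd35 and Crabp1 hold none in these letters. CANNTG reads the same on both strands, so each place is counted once, and CAGCTG is 1 of its forms. CANNTG occurred in 66.2% of all 32851 RefSeq windows of this length, and in 55.8% of the 2267 listed genes with 1 entry. It occurred in 67.5% of the 206 lower and 60.2% of the 108 higher genes with 1 entry. CAGCTG occurred in 13% of all windows, 13.5% of the listed genes, 22.8% of the lower genes and 18.5% of the higher genes. CACCTG, which reads CAGGTG on the other strand, occurred in 17.2%, 14.2%, 22.8% and 12.04% of the same sets. CATCTG occurred in 14.4%, 8.82%, 10.7% and 12.96% of them, and CATATG in 4 lower and 4 higher genes. Among the printed windows, those of Pdlim3, Ttn, Col16a1 and Fam20a hold CACCTG or CAGGTG. These are counts of letters, not of bound sites.

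Most listed genes of the contractile apparatus were lower with Twist2, as the plot of list members shows. List counts here carry no minimum CPM, and on that footing 11.5% of all listed genes were at least 2-fold lower and 4.89% at least 2-fold higher. Of the thick filament genes, 14 of 23 were in the table, 10 were lower and none higher (median -2.03). Of the thin filament genes, 15 of 18 were in the table, 11 were lower and none higher (median -2.19). For titin, Z-disc and costamere genes the count was 19 lower and none higher among 30 of 39 (median -1.31). Ratios above 0 were found for 1 thick filament gene, 1 thin filament gene and 5 titin, Z-disc and costamere genes. In sum of CPM the thick filament list went from 347 with GFP to 54.4 with Twist2, and the thin filament list from 3342 to 1497.

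Single sarcomere genes differed in depth of the decrease. Mylpf, the fast myosin regulatory light chain, stood at 118 CPM with GFP and 11.7 CPM with Twist2 (-3.22, interval -3.60 to -3.07). Tnnt3 and Tnnt1, the fast and slow skeletal troponin T genes, stood at 59.6 against 4.97 CPM and 54.8 against 4.70 CPM. Fast and slow forms were thus both low with Twist2. Acta1, skeletal alpha-actin, went from 62.4 to 9.31 CPM, and Myh3, the embryonic myosin heavy chain, from 25.9 to 5.06 CPM. Actn3, the fast-fibre alpha-actinin, stood at 192 and 21.6 CPM, and Smyd1 and Unc45b, which help to fold and assemble myosin, at 66.2 against 5.60 CPM and 10.6 against 0.271 CPM. Some other muscle genes showed smaller ratios. Des, the muscle intermediate filament desmin, stood at 1501 and 726 CPM (-1.05), and Tnnt2, the embryonic and cardiac troponin T, at 169 and 194 CPM (0.20). How reads that match several actin or myosin genes were counted is not given in the sources used here.

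**Figure D3:**
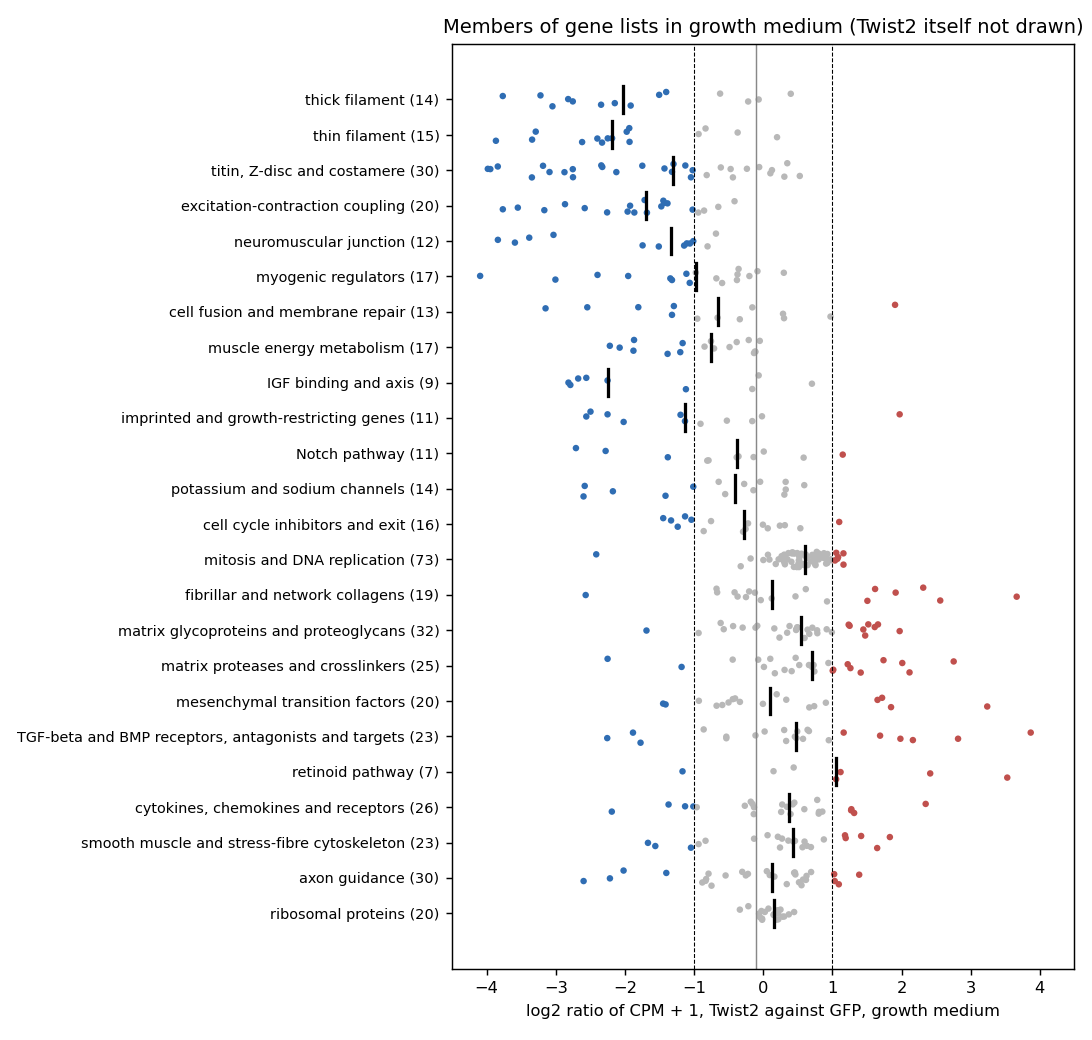
Log2 ratios in growth medium of the listed members of 24 gene lists, 1 point per gene, with the number of members in brackets; black bars are list medians, the grey line is the median of all listed genes and the dashed lines mark 2-fold. Muscle lists lie left of the grey line almost throughout, the IGF list, H19 included, has a median of -2.25, and the matrix lists spread to the right.

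Calcium handling and the nerve-facing membrane showed the same direction. All 20 excitation-contraction coupling genes in the table (of 28) had negative ratios under every scaling and pseudocount tried, and 16 were at least 2-fold lower (median -1.70). Ryr1, the calcium release channel, stood at 219 and 29.2 CPM (-2.87, interval -3.08 to -2.74), and Stac3, which couples it to the voltage sensor, at 143 and 29.1 CPM. Hrc, a calcium-binding protein of the reticulum, stood at 15.3 and 0.813 CPM. At the neuromuscular junction all 12 listed genes (of 15) were likewise negative and 10 were at least 2-fold lower (6 with size factors). Besides Chrng and Chrnd, Chrna1, the alpha subunit, stood at 1061 and 372 CPM, and Dok7, an activator of the receptor kinase MuSK, at 47.9 and 4.97 CPM. Lrp4, the agrin receptor, went with them at 365 and 108 CPM. The ratio of the alpha subunit was thus -1.51, against -3.59 for gamma and -3.39 for delta.

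The regulators above these genes were lower to unequal degrees. Of 24 myogenic regulators, 17 were in the table, 8 were at least 2-fold lower and none higher (median -0.98). Myod1, the gene of MyoD, stood at 1184 and 547 CPM (-1.11, interval -1.16 to -1.07), far less of a difference than Myog. Mef2a, a MADS-box partner of MyoD, stood at 873 and 225 CPM (-1.95), and Eya4, a transcriptional coactivator, at 146 and 26.8 CPM (-2.40). Pax7, the satellite cell factor, differed least of the named regulators, with 78.7 CPM with GFP and 60.5 CPM with Twist2 (-0.37, interval -0.53 to -0.23). Rbm24 and Rbm20, which direct muscle splicing, stood at 10.7 against 0.452 CPM and 244 against 95.6 CPM.

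Among the helix-loop-helix proteins that could pair or compete with Twist2 there was no common direction (15 of 28 in the table, 2 higher with Twist2 itself counted, 3 lower, median 0.02, or -0.03 with scaling to reads outside the table). Id1, which lacks a DNA-binding region and sequesters E proteins, stood at 209 and 470 CPM (1.16, interval 1.09 to 1.24). Tcf3, an E protein gene, was close to level at 165 and 179 CPM, and Twist1 stood at 13.6 and 17.4 CPM. Lower were Hes6, a Hes family member that favours myogenesis (140 and 28.0 CPM, -2.28), Bhlhe41, a repressor of the circadian clock (192 and 71.0 CPM), and Scx, the tendon factor scleraxis (61.3 and 28.8 CPM).

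The Notch pathway, which keeps muscle progenitors undifferentiated, had no common direction. Of 28 genes 11 were in the table, 1 was higher and 3 were lower (median -0.39). Of the ligands, Dll1 stood at 67.6 CPM with GFP and 9.49 CPM with Twist2 (-2.71) and Jag2 at 112 and 42.3 CPM, while Jag1 stood at 11.6 and 26.9 CPM (1.15, interval 0.90 to 1.54). Of the receptors, Notch3 stood at 126 and 71.5 CPM and Notch2 at 297 and 298 CPM. The target Hes1 stood at 27.0 and 40.9 CPM (0.58) and the target Hey1 at 12.6 and 6.87 CPM (-0.79). Ligands and targets thus each held ratios of both signs.

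Fusion, energy and membrane genes completed the muscle side. Tmem8c, which encodes the fusion protein myomaker, stood at 45.6 CPM with GFP and 4.25 CPM with Twist2 (-3.15, interval -3.89 to -2.99). Gm7325, the gene of its partner myomixer, was also lower but at few reads, at 1.95 and 0.181 CPM (-1.32, interval -6.58 to -1.38). Of 13 fusion and membrane repair genes in the table (of 27), 5 were lower and 1 was higher, Adam12, a metalloprotease of fusing myoblasts, at 2.26 and 11.2 CPM. Cdh15, the cell contact protein M-cadherin, stood at 598 and 243 CPM, and Jam2 at 146 and 40.8 CPM. Cdon, a surface partner of cadherins, stood just inside the threshold at 1527 and 787 CPM (-0.95). All 17 listed energy metabolism genes (of 27) had negative ratios, though not under every setting (12 of 17 with the least favourable), and 7 were 2-fold lower. Pdk4, which limits pyruvate use, stood at 237 and 50.1 CPM, and Pygm, muscle glycogen phosphorylase, at 42.3 and 10.8 CPM. Of 14 potassium and sodium channel genes in the table (of 52), 5 were lower and none higher, among them Kcnn3, a calcium-activated potassium channel (8.83 and 1.17 CPM), and Scn9a, a sodium channel (195 and 96.0 CPM).

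The IGF list, which counts the non-coding RNA H19 as a member, had a median of -2.25, which is the ratio of H19 itself. IGFs are growth factors that drive myoblast growth and differentiation, and IGF-binding proteins hold them in the medium. Of 18 names, 9 were in the table, and 6 were at least 2-fold lower, H19 among them, and none higher. Their summed level was 19106 CPM with GFP and 3900 CPM with Twist2, of which H19 alone made up 11102 and 2328 CPM. Igf2, the main ligand of differentiating myoblasts, stood at 1252 and 211 CPM (-2.56, interval -2.63 to -2.50), and Igf1 at 14.7 and 1.26 CPM (-2.79). Both ligands were low with Twist2. Of the binding proteins, Igfbp5 stood at 5739 and 813 CPM (-2.82), Igfbp3 at 308 and 47.3 CPM (-2.68) and Igfbp2 at 363 and 167 CPM (-1.12). The receptors, by contrast, stayed well inside the threshold in the plot of IGF axis levels, with Igf1r at 224 and 214 CPM and Igf2r at 68.9 and 61.5 CPM.

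H19, an imprinted non-coding RNA, was the gene with the largest decrease in CPM, at 11102 with GFP and 2328 with Twist2 (-2.25, interval -2.27 to -2.23). It lies on chromosome 7 (chr7:142575529-142578143, minus strand) beside Igf2 (chr7:142650766-142666816, minus strand), and both share an enhancer region and opposite parental imprints. Other imprinted genes were lower as well: 11 of 26 were in the table, 6 were at least 2-fold lower and 1 higher (median -1.13). Plagl1, a zinc finger factor known to bind the H19 and Igf2 region, stood at 1192 and 293 CPM (-2.02). Mest stood at 793 and 139 CPM (-2.50), and Peg3, a zinc finger gene, at 2412 and 1051 CPM (-1.20). The exception was Dcn, whose imprinting is known from placenta and which is also a matrix gene and a fibroblast marker, at 1.95 and 10.6 CPM (1.97, interval 1.73 to 3.22). H19 and Igf2 are members of both lists, so the counts of these lists are not separate.

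**Figure D4:**
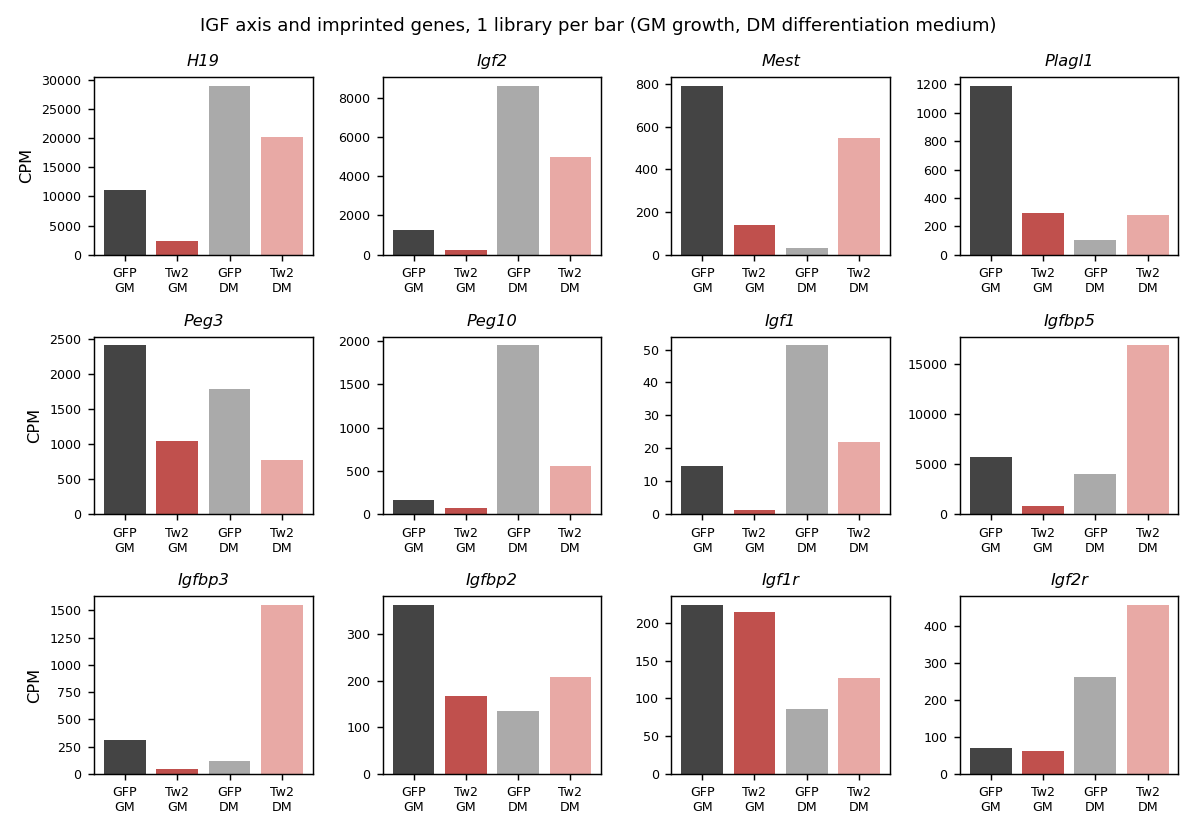
CPM of 12 IGF axis and imprinted genes in the 4 libraries, 1 library per bar, each panel on its own linear axis from 0 (GM growth medium, DM differentiation medium, Tw2 Twist2). In growth medium the Twist2 bar is the lower one in all 12 panels, only slightly so for Igf1r and Igf2r; in differentiation medium it is the higher one for Mest, Plagl1, Igfbp2, Igfbp3, Igfbp5, Igf1r and Igf2r.

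The lists of extracellular matrix genes held more higher than lower members. Of 25 matrix proteases and crosslinkers in the table (of 61), 9 were at least 2-fold higher and 2 lower (median 0.71), and of 32 matrix glycoproteins and proteoglycans (of 71), 8 were higher and 1 lower (median 0.54). Among 19 collagens in the table (of 33), 6 were higher and 1 lower, with a median of 0.12, so a few collagens stood out from a list that was otherwise close to level. Summed CPM went from 1101 to 2186 for proteases and crosslinkers, from 12502 to 18758 for glycoproteins, and from 4708 to 6953 for collagens. Beside these lists, the fibroblast markers Ly6a (11.0 and 32.9 CPM) and Dcn moved in the same direction at low levels, and their part in the matrix values was not tested.

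Col3a1, the fibrillar collagen of soft connective tissue, stood at 807 CPM with GFP and 3043 CPM with Twist2 (1.91, interval 1.88 to 1.95). The collagen VI chains Col6a1 (4.0 and 23.9 CPM) and Col6a3 (2.05 and 17.0 CPM) were higher too, as were Col5a3 (20.6 and 65.3 CPM) and Col7a1 (4.41 and 14.4 CPM). In the other direction, Col25a1, a transmembrane collagen of muscle that guides motor innervation, stood at 7.08 and 0.361 CPM. The basement membrane collagen Col4a1 stood at 1200.1 and 927 CPM (-0.37), under 2-fold.

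Of the glycoproteins, Bgn, the small proteoglycan biglycan, stood at 148 and 469 CPM, Fbln2 (fibulin 2) at 325 and 934 CPM, Fbn1 (fibrillin 1, the backbone of microfibrils) at 100 and 308 CPM, and Vcan (versican) at 49.6 and 139 CPM. Fibronectin (Fn1) was already abundant with GFP and differed less, at 3248 and 5150 CPM (0.66). Npnt, nephronectin, a basement membrane ligand of integrins, was the 1 lower gene at 538 and 166 CPM (-1.69). Itga7, the laminin-binding integrin of muscle, stood at 1537 and 752 CPM (-1.03). Of the higher genes in the protease and crosslinker list, Pcolce, which enhances procollagen cleavage, stood at 197 and 658 CPM (1.74). Plat, tissue plasminogen activator, stood at 11.3 and 52.2 CPM (2.11). Mmp2, a gelatinase, stood at 24.7 and 60.6 CPM (1.26), while the membrane protease Mmp15 stood at 66.2 and 13.1 CPM (-2.25) and the inhibitor Timp3 at 35.9 and 15.3 CPM (-1.18).

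The list of mesenchymal transition genes, not all of them transcription factors, was split, with 10 ratios above 0 and 10 below. Of 20 listed genes (of 31), 5 were higher, Twist2 itself among them, and 2 were lower, with a median of 0.09. Snai2, the zinc finger repressor Slug, stood at 45.9 CPM with GFP and 146 CPM with Twist2 (1.65, interval 1.52 to 1.83). Prrx2, a homeobox factor of limb mesenchyme, stood at 38 and 139 CPM, and Cdh11, a mesenchymal cadherin, at 73.7 and 245 CPM. Vim, the intermediate filament vimentin, was just inside the 2-fold threshold at 6942 and 12995 CPM (0.90). On the lower side were Lef1, a nuclear mediator of Wnt signals (81.1 and 29.8 CPM), and Sox11 (22 and 7.41 CPM). Sox9 and Runx2, the cartilage and bone factors, stood at 34.0 against 23.7 CPM and 118 against 77.6 CPM, so both were somewhat lower with Twist2.

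In TGF-beta and BMP signalling some antagonists and surface modulators were on the higher side and some receptors on the lower side. Of 23 receptors, antagonists and targets in the table (of 45), 6 were higher and 3 lower (median 0.48). Besides Lrrc32 and Grem1, Fstl1, a follistatin-like secreted protein, stood at 306 and 987 CPM (1.69), and Dact1, an adaptor of Wnt and TGF-beta signals, at 1.74 and 11.3 CPM. Of the receptors, Acvr2a, which binds activins and myostatin, stood at 148 and 39.3 CPM (-1.89), and the BMP receptor Bmpr1b at 10.3 and 1.36 CPM. Follistatin itself (Fst), an activin antagonist, stood at 10.5 and 2.35 CPM (-1.78), opposite to Grem1. Of 7 ligands in the table (of 19), Tgfb1 was higher (26.9 and 60.3 CPM) and Mstn, myostatin, lower at few reads (1.95 and 0.181 CPM).

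The retinoid list was small and mostly higher. Of 7 genes in the table (of 22), 4 were higher and 1 lower (median 1.05). With Crabp1 went Cyp26b1, which degrades retinoic acid, at 8.11 and 47.5 CPM (2.41, interval 2.21 to 2.91). The receptor Rarg stood at 56.2 and 123 CPM, and Rdh10, which makes retinal, at 10.7 and 23.2 CPM. Aldh1a2, which makes retinoic acid itself, stayed under 2-fold, at 10.5 and 14.5 CPM (0.44). Tgm2, a known retinoid target that encodes a transglutaminase, stood at 2.87 and 0.723 CPM.

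Wnt genes had no common direction (15 of 55 in the table, 3 higher, 2 lower), and the sign of the median turned with scaling (-0.07, or 0.17 with size factors). Fzd3, a receptor, stood at 37.6 and 11.6 CPM, while the secreted CCN genes Wisp2 and Ctgf were on the higher side, Ctgf at 18 and 46.8 CPM. Growth factor ligands were split as well (17 of 43 in the table, 5 higher, 3 lower). Figf, which encodes the vascular growth factor VEGF-D, stood at 2.98 and 17.7 CPM, Angpt1, angiopoietin 1, at 30.8 and 102 CPM, and Ereg, epiregulin, at 3.80 and 11.8 CPM, while Pdgfb stood at 13.6 and 2.53 CPM. Of the growth factor receptors and their feedback genes, 3 of 14 in the table (of 44) were lower and none higher. Met, the receptor of hepatocyte growth factor on myoblasts, stood at 336 and 131 CPM (-1.35), and Spry2, a feedback inhibitor, at 81.1 and 38 CPM. Fgfr1 stood at 381 and 679 CPM (0.83), inside the threshold.

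Cytokine and chemokine genes went both ways. Of 26 cytokine, chemokine and receptor genes in the table (of 83), 5 were higher and 4 lower (median 0.37). Il1rl1 (chr1:40429570-40465415) lies near Il18rap (chr1:40515362-40551705) on the plus strand of chromosome 1, and Il18rap, a subunit of the interleukin 18 receptor, stood at 19.1 CPM with GFP and 101 CPM with Twist2 (2.35, interval 2.18 to 2.64). Il1rap, the co-receptor that pairs with the Il1rl1 protein, lies on chromosome 16 and stood at 14.2 and 36.7 CPM (1.31). Ptgs1, a cyclooxygenase, stood at 111 and 270 CPM, and Ptgis, which makes prostacyclin, at 175 and 67.1 CPM. Cxcr4, the chemokine receptor of migrating myoblasts, stood at 65.5 and 13.6 CPM (-2.19).

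Adhesion genes went both ways. Among 28 cadherins and adhesion molecules in the table (of 61), 6 were higher and 6 lower. M-cadherin (Cdh15) was on the lower side and Cdh11 on the higher side, with Fat4, an atypical cadherin (9.34 and 36.0 CPM), and Pcdh19 (74.7 and 201 CPM). Among 7 integrins in the table (of 20), 2 were higher and 3 lower. Itgb3 stood at 6.98 and 27.6 CPM and Itga4 at 9.54 and 23.9 CPM, while Itgb6 stood at 32.6 and 6.87 CPM and Itgb8 at 14.1 and 5.87 CPM. Axon guidance genes gave 4 higher and 4 lower of 30 in the table (of 67). Sema7a, a membrane-anchored semaphorin that binds integrins, stood at 40.3 and 107 CPM, and the secreted Sema3c and Sema3d at 73.5 against 17.3 CPM and 9.44 against 0.723 CPM.

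The smooth muscle and stress-fibre list was mixed in a similar way (23 of 38 in the table, 5 higher, 3 lower, median 0.43). Tagln (SM22) stood at 6.16 and 21.4 CPM, Csrp2, a LIM protein of smooth muscle, at 15.1 and 56.2 CPM and Pdlim1 at 52.4 and 141 CPM. Acta2, smooth muscle actin, which differentiating myoblasts also express, stood at 361 and 113 CPM (-1.67), and Myl9 at 35.3 and 11.3 CPM. The non-muscle myosin heavy chain Myh9 stood at 2024 and 3131 CPM (0.63). Genes known from smooth muscle thus went both ways.

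Cell cycle genes were shifted by a small and even amount. Of 73 mitosis and DNA replication genes in the table (of 88), 70 had positive ratios (at least 69 under every setting), but 6 were at least 2-fold higher, and the median was 0.60. The count past 2-fold depended on the setting, with 21 under size factors and 3 with a pseudocount of 5 CPM. Cdc20, an activator of the anaphase-promoting complex, stood at 65.4 and 147 CPM (1.16), and Plk1, a mitotic kinase, at 57.0 and 121 CPM (1.07). The proliferation marker Mki67 stood at 248 and 411 CPM (0.72). The 1 lower gene was E2f2, at 14.5 and 1.90 CPM (-2.42, interval -3.67 to -2.26). Cell cycle inhibitors and exit genes gave 5 lower and 1 higher of 16 in the table (of 36). Cdkn1a, the inhibitor p21 that is switched on when myoblasts leave the cycle, stood at 787 and 382 CPM (-1.04), Rb1 at 82.4 and 32.1 CPM (-1.33) and Ccnd3, the cyclin of differentiating myoblasts, at 536 and 244 CPM (-1.13). Cdkn2b, the inhibitor p15, stood at 16.5 and 36.5 CPM.

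In CPM, the 10 largest decreases summed to -21811 of a total of -94089 over all listed genes that were lower, and the 10 largest increases to 24553 of 69941 over those that were higher, so most of the difference lay in other genes. Besides H19, Igfbp5, Peg3, Igf2 and Plagl1, the largest decreases in CPM were in Lrrn1, a leucine-rich repeat membrane protein (1779 and 457 CPM), Sh3glb1, a membrane-curving endophilin (1482 and 543 CPM), Xist, the RNA of X inactivation (1910 and 992 CPM), Ankrd1, a stress-responsive titin-binding protein (1424 and 578 CPM), and Itga7. The largest increases after Rn45s were in Vim, Col3a1, Thbs1, the matrix protein thrombospondin 1 (2905 and 4982 CPM), Fn1, Lrp1, an endocytic receptor (2128 and 3653 CPM), Twist2, Myh9, Sparc, a collagen-binding protein (1069 and 2126 CPM), and S100a6, a calcium-binding protein (1346 and 2299 CPM). Of these 8 listed increases apart from Rn45s and Twist2, only Col3a1 was past 2-fold.

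The libraries from differentiation medium gave a second measurement of Twist2 against GFP in other cells of the study. There, 25.4% of 3437 genes stood 2-fold or more above GFP and 25.2% stood 2-fold or more below it (50.6% together), against 5.21% and 10.6% in growth medium, so differences of this size were more common after 5 days. Of the 183 genes higher in growth medium, Twist2 included, 126 were also at least 2-fold higher in differentiation medium, which is 68.9% of the growth medium genes and 14.4% of those in differentiation medium. Of the 372 lower genes, 180 were also lower (48.4% and 20.8%). The opposite direction past 2-fold was found for 4 of the higher genes and 33 of the lower genes (8.87%). The remaining 53 and 159 genes either stayed under 2-fold or were under 10 CPM in both differentiation medium libraries and so were not called. Some of the uncalled genes had large ratios, such as Cdca8, a mitosis gene (2.94).

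Several matrix genes had larger ratios in differentiation medium than in growth medium. Fbln2 stood at 325 and 934 CPM in growth medium (1.52) and at 7.80 and 514 CPM in differentiation medium (5.87). Col6a1 went from 2.31 to 7.56 and Mrc2 from 3.02 to 7.0 in log2 ratio. The collagen list had medians of 0.12 and 3.05, with 6 and 14 genes at least 2-fold higher (in differentiation medium, with no minimum CPM, 26.6% of all listed genes were higher and 23.1% lower). Mitosis genes had medians of 0.60 and 2.28, and the 2-fold count went from 6 to 66 of 73. Their levels were lower in both differentiation medium libraries, with summed CPM of 4355 (GFP) and 6624 (Twist2) before and 400 and 1211 after. The thick and thin filament lists had medians of -2.03 and -2.19 in growth medium and -2.07 and -1.82 in differentiation medium. The titin, Z-disc and costamere list had medians of -1.31 and -2.05, with 19 and 26 of 30 genes at least 2-fold lower. Levels in the 2 media were far apart: Ttn stood at 297 and 19.8 CPM before and at 11355 and 1031 CPM after.

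The myogenin gene had a smaller ratio in differentiation medium than in growth medium, though a wider gap in CPM. Myog stood at 76.4 and 3.52 CPM in growth medium (-4.10) and at 1075 and 378 CPM in differentiation medium (-1.51), so the Twist2 library after 5 days held more of it than the GFP library before. Myod1 stood at -1.11 and then at 0.40 (810 and 1068 CPM). Pax7 stood at -0.37 and then at 2.83 (4.01 and 34.6 CPM), and of the 4 libraries the GFP differentiation library was the low one.

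A group of genes went from lower with Twist2 in growth medium to higher in differentiation medium. Igfbp5 stood at 5739 and 813 CPM before and at 4025 and 16858 CPM after, and Igfbp3 at 308 and 47.3 CPM before and 121 and 1553 CPM after. Mest stood at 793 and 139 CPM before and at 29.1 and 548 CPM after. In each of these the Twist2 library was the lower one in growth medium and the higher one 5 days later. Cxcr4 (2.60 and 29.9 CPM after), Sox8 (2.82 and 25.2 CPM) and Lef1 (6.82 and 40.4 CPM) followed, as did Islr, a secreted immunoglobulin-domain protein of stromal cells (20.7 and 4.97 CPM before, 47.9 and 320 CPM after). Whereas Igfbp5 and Islr were higher in the Twist2 differentiation library than in any other library, Sox8 and Cxcr4 were high in both the GFP growth and the Twist2 differentiation library. H19 and Igf2 kept their direction with smaller ratios (-0.53 and -0.79). The reverse order was seen in Col7a1, which anchors epithelia to the matrix, at 4.41 and 14.4 CPM before and 17.3 and 4.77 CPM after. None of these differences between media was tested.

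**Figure D5:**
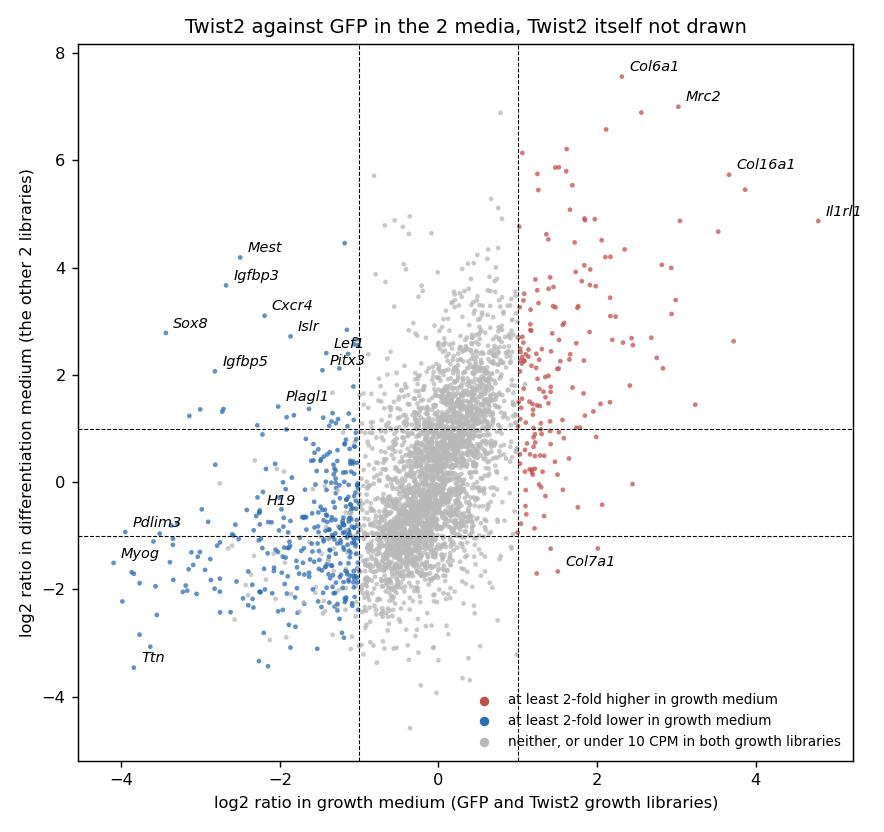
Log2 ratio of Twist2 against GFP in growth medium (horizontal) and in differentiation medium (vertical) for the listed genes except Twist2, 1 point per gene; the dashed lines mark 2-fold in each. Red points (183 genes at least 2-fold higher in growth medium, less Twist2) lie mostly above 0 on the vertical axis, and the upper left corner holds genes such as Mest and Igfbp3 that are lower in growth medium and higher in differentiation medium.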

How the data were processed

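Total RNA of 4 cultures of mouse myoblasts was sequenced, 1 library per group. Per the submitters' processing notes, the tools included TopHat2 2.0.0 and DESeq2 1.6.3 and the build was GRCm38 (mm10), with no roles named. The counter, annotation and strand setting were not given there. CPM values for 3760 genes come from the authors' deposited table, which also holds 3 columns of log2 ratios against the GFP growth medium library; these equal ratios with 1 CPM added (within 1.27e-11) and served only for that check. By its values, the table keeps genes that reached 10 CPM in 2 or more libraries and passed 2-fold in 1 or more of the authors' comparisons. Shares therefore refer to listed genes, and a list member outside the table is not shown to be unexpressed. CPM values were whole multiples of 1 read within 0.00589 reads, which gave reads and totals. Log2 ratios of CPM + 1 and exact conditional binomial (Clopper-Pearson) 95% intervals were computed in Python 3.11.15 (pandas 2.3.3, scipy 1.17.1) and tested on simulated data. Without molecular identifiers, reads are not independent molecules. No count model was fitted. Positions come from GENCODE M21 (3609 symbols matched, 140 through an older symbol, 11 not).

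The comparison, 39 gene lists and thresholds were chosen with earlier results of these data known. Named genes are Twist2, Twist1, Myod1, Myog, Pax7, Tmem8c and Myh3, the 15 highest and 15 lowest ratios, the 10 largest gains and losses in CPM, up to 6 members per list with the largest ratios plus up to 2 that go 2-fold against its median, and up to 10 genes past 2-fold in opposite directions in the 2 media. A further 11 (Col4a1, Fst, Fstl1, Hes1, Igf1r, Igf2r, Mki67, Mmp2, Notch2, Tcf3 and Tnnt2) were chosen after their values were seen. Some genes that the rule selects are left out of the text. Alternatives were pseudocounts of 0.1 and 5 CPM, scaling to reads outside the table, size factors, and no minimum CPM.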

Additional observations from a re-analysis of the deposited data

Results flagged for a closer look

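In 10 genes the ratio of Twist2 to GFP passed 2-fold in opposite directions in growth and differentiation medium, and these came first among 37 such genes when ranked by the smaller of their 2 absolute ratios; the difference between the media was not tested, since each group had 1 library. Log2 ratios in growth and then differentiation medium were -2.50 and 4.19 for Mest, -2.68 and 3.67 for Igfbp3, and -2.82 and 2.07 for Igfbp5. Sox8 stood at -3.44 and 2.78, Cxcr4 at -2.19 and 3.10, and Plagl1 at -2.02 and 1.41. Islr stood at -1.86 and 2.72, Lef1 at -1.41 and 2.41, and Pitx3, a homeobox factor of muscle, at -1.46 and 2.09 (15.7 and 5.06 CPM, then 10.7 and 48.8 CPM). Col7a1 went the other way, at 1.51 and -1.67.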

How the results depend on the processing

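No paired analysis was possible because each group had 1 library. No value changed sign past 2-fold under a pseudocount of 0.1 or 5 CPM, scaling to the reads outside the table, or size factors, and 156 of 191 named genes past 2-fold stayed past it under all of these. With size factors, 241 genes were lower in place of 372, neuromuscular junction genes lower numbered 6, cytokine genes higher 8, cadherins and adhesion molecules lower 3, mitosis genes higher 21 and cell cycle inhibitors lower 2. With a pseudocount of 5 CPM, energy metabolism genes lower numbered 4, growth factor ligands higher 2, mitosis genes higher 3 and channels lower 3. The median changed sign between scalings for the helix-loop-helix, Wnt, receptor tyrosine kinase, integrin, cadherin, glycolysis, cholesterol and homeobox lists. Without a minimum CPM, 184 genes were higher and 434 lower. Of the 555 genes past 2-fold, 10 had under 10 reads in 1 library.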

Other observations

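Median ratios of several gene groups outside muscle and matrix lay between -0.02 and 0.33 in growth medium. Some of these groups still held genes past 2-fold. Over the whole table, with no minimum CPM, 4.89% of genes passed 2-fold upward and 11.5% downward. Lists of 10 genes or fewer, such as glycolysis and histones, are too short to be set against these shares. None of 20 ribosomal protein genes in the table (of 78) passed 2-fold (median 0.15), and none of 13 amino acid stress and unfolded protein response genes (of 33) did (median 0.33). Of 25 cholesterol and lipid synthesis genes (of 33), 1 was higher, Fads2, a fatty acid desaturase, at 9.54 CPM with GFP and 23.1 CPM with Twist2. None of 4 histone genes (of 38) passed 2-fold. Of 10 glycolysis and hypoxia genes (of 39), Ndrg1 was higher (11.4 and 43.2 CPM) and Egln3, an oxygen-sensing hydroxylase, lower (50.9 and 17.2 CPM). Among 21 immediate early and stress genes (of 40), the metallothioneins Mt1 (12.5 and 26.7 CPM) and Mt2 (5.44 and 23.9 CPM) were higher, and the small heat shock gene Hspb7 was lower at few reads (2.46 and 0.181 CPM).

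Interferon response genes gave 2 higher and 1 lower of 9 in the table (of 48): Irgm1 (39.5 and 105 CPM) and Ifit2 (12.4 and 25.8 CPM) against Gbp6 (59.8 and 15.9 CPM). Of 5 Hedgehog genes (of 14), Hhip, a decoy receptor of hedgehog ligands, was lower, at 68.7 and 23.0 CPM, and 0.217 and 0.404 CPM in differentiation medium. Of 17 homeobox and related genes (of 67), 3 were lower, Pitx3 and Lmo7 (81.1 and 37.7 CPM) among them, and none was higher. Of 9 pericyte and smooth muscle markers, 5 were in the table and 2 were lower, Acta2 and Des, with Rgs5, a pericyte regulator of G-protein signals, at 51.7 and 85.1 CPM. The tendon marker Scx was the 1 of 5 tenocyte markers in the table, and Sox9 and Runx2 were the 2 of 8 cartilage and bone markers. The mitochondrial leucyl-tRNA synthetase gene Lars2 stood at 229 and 963 CPM in growth medium and at 441 and 329 CPM in differentiation medium, and Rn45s at 2088 and 8294 CPM, then 2312 and 4144 CPM. Both were highest in the Twist2 growth medium library, and whether the ribosomal RNA content of that library had a part in the Lars2 value was not tested.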
